A study of Arabidopsis thaliana with 24 samples.

Results

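The genes described here are the Arabidopsis thaliana microRNA genes that the authors' deposited table types as microRNA, after 7 copper-responsive microRNA genes were set aside. They were found by the table's locus type, with the copper genes left out by name and no cutoff on a measured value among the listed loci. The set was defined with earlier results of these data known. This gave 150 of the 14888 loci in the table, in 104 microRNA families. RefSeq annotates 326 microRNA genes in all, and those that are neither listed nor copper-responsive are not described here.

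The study sequenced small RNA from inflorescences of soil-grown plants of ecotype Col-0 and of mutants in that background. The labels name 8 genotype groups with 3 libraries each: the triple mutants rrp4-2/urt1-1/dcl2CRISPR and rrp4-2/urt1-1/heso1-4, the double heso1-4/urt1-1, the singles heso1-4, ski2-5, urt1-1 and rrp4-2, and Col-0 as wild type. The deposited table holds 13 mutant lines. Lines named GKheso1, heso1.3, urt1.2 and ski2.2 are further single mutants of HESO1, URT1 or SKI2, and the lines rrp4urt1dcl2.B9, rrp4urt1dcl2het, ski2urt1dcl2.107 and ski2urt1dcl2.123 are named for 3 mutations each. The labels do not settle whether GKheso1 is heso1-4, which of the rrp4 urt1 dcl2 lines is the labelled dcl2CRISPR group, or whether "het" means a heterozygous dcl2. The lines heso1.3, urt1.2, ski2.2, ski2urt1dcl2.107 and ski2urt1dcl2.123 match no labelled group by name, so their number of libraries is not known here. All values are log2 fold changes that the authors computed with DESeq2, taken here as mutant over Col-0, since Col-0 is the labelled line that the table does not list as a mutant. Where lines were compared with the same Col-0 libraries, which the sources used here do not state, their changes are not independent of each other.

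MicroRNAs are cut by Dicer from hairpin transcripts, methylated at their ends by HEN1 and loaded into ARGONAUTE proteins, which they guide to complementary mRNAs. HESO1 and URT1 are terminal nucleotidyl transferases that add uridines to RNA 3′ ends, and they are known to tail microRNAs that lack the methyl mark. RRP4 is a core subunit of the RNA exosome, which degrades RNA from its 3′ end. SKI2 is a helicase that feeds RNA to the cytoplasmic exosome, and DCL2 is a Dicer that makes siRNAs.

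The mature sequences that the results turn on are shown 5′ to 3′ with the seed, bases 2 to 8, in capitals. They were read from the RefSeq genome (TAIR10.1) at the annotated positions, and all 150 genes had at least 1 annotated mature sequence.
miR156a-5p: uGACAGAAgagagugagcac
miR156h: uGACAGAAgaaagagagcac
miR156i: uGACAGAAgagagagagcag
miR158a-3p: uCCCAAAUguagacaaagca
miR158b: cCCCAAAUguagacaaagca
miR169d: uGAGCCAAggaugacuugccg
miR171b-3p: uUGAGCCGugccaauaucacg
miR395a: cUGAAGUGuuugggggaacuc
miR395b: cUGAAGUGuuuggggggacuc
miR399f: uGCCAAAGgagauuugcccgg
miR773a: uUUGCUUCcagcuuuugucuc
miR773b-3p: uUUGAUUCcagcuuuugucuc
miR845a: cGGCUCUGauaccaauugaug
miR845b: uCGCUCUGauaccaaauugaug
miR839-5p: uACCAACCuuucaucguuccc
miR5657: uGGACAAGguuagauuuggug
miR5636: cGUAGUUGcagagcuugacgg
The miR156 sequences share 1 seed, which 9 of the 150 genes carry, and so do miR158a and miR158b. The 6 listed MIR395 genes share a seed in 2 sequence versions. The seeds of miR773a and miR773b-3p are not the same, nor are those of miR845a and miR845b.

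The table lists a locus in a line only where the authors' adjusted p was at most 0.05, and by rank of p it holds 50.9% to 82.8% of the loci that pass that threshold. A gene that is not listed is therefore not shown to be unchanged. Values of single libraries, depth per library and read lengths are not among the values used here, so neither the number of libraries that show a direction nor the inflorescence origin could be checked against them. Standard errors (SE) were recovered from the deposited p. In the authors' deposited table URT1 itself fell in 7 lines named for urt1, by 0.81 to 1.74, and was not listed in urt1.2. HESO1 was at 1.14 in rrp4-2/urt1-1/heso1-4, 0.99 in heso1-4/urt1-1 and 4.60 ± 0.24 (SE) in GKheso1 in the authors' deposited table, with no entry in heso1.3. DCL2 was at -0.77 in rrp4urt1dcl2het in the authors' deposited table. Neither SKI2 nor RRP4 had an entry. These values count small RNA reads at each gene, not its mRNA, so they do not check the knockouts. Small RNA at HESO1 was thus higher, not lower, in the lines that list it, and the cause was not tested.

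The microRNA genes gave 409 entries. Of the 150 genes, 68 were listed only as higher, 68 only as lower and 14 as higher in some lines and lower in others. Their mean normalised counts over all libraries (base mean) in the authors' deposited table ran from 4.33 to 110881 with a median of 100.7, against a median of 83.2 for all loci. Each base mean is a level that is not divided by gene length.

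In the lines named as mutants of HESO1 or URT1, alone or together, listed microRNA genes were nearly all higher. In heso1-4/urt1-1, 22 of the 150 genes were higher and 2 lower, against 1.59% and 1.13% of all loci in the table. In GKheso1, 16 were higher and 0 lower, against 0.658% and 0.813% of all loci. In urt1-1, 8 were higher and 0 lower (all loci: 1.46% and 0.504%). The further lines gave few calls, with 4 higher and 0 lower in heso1.3 (0.43% and 0.49% of all loci) and 2 higher and 0 lower in urt1.2 (0.692% and 0.477%). As a share of the 150 genes, those higher made up 14.7% in heso1-4/urt1-1, 10.7% in GKheso1, 5.33% in urt1-1, 2.67% in heso1.3 and 1.33% in urt1.2.

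In the lines with an exosome mutation the microRNA genes were split. In rrp4-2, 29 genes were higher and 18 lower, against 14.7% and 4.33% of all loci. In rrp4-2/urt1-1/heso1-4, 46 were higher and 43 lower, against 28.2% and 22.4% of all loci, so that 30.7% and 28.7% of the microRNA genes stood beside these shares. In rrp4urt1dcl2.B9, 37 were higher and 13 lower (21.9% and 5.18% of all loci). The line rrp4urt1dcl2het leaned the other way, with 29 higher and 56 lower (41.2% and 19.4% of all loci), which is 19.3% and 37.3% of the microRNA genes. In ski2-5, 8 genes were higher and 11 lower (1.18% and 1.22% of all loci), and in ski2.2 the counts were 2 and 0 (2.16% and 0.672%). In ski2urt1dcl2.107, 12 were higher and 30 lower (6.33% and 5.43% of all loci), and in ski2urt1dcl2.123 there were 10 and 11 (3.67% and 3.11%).

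**Figure D1:**
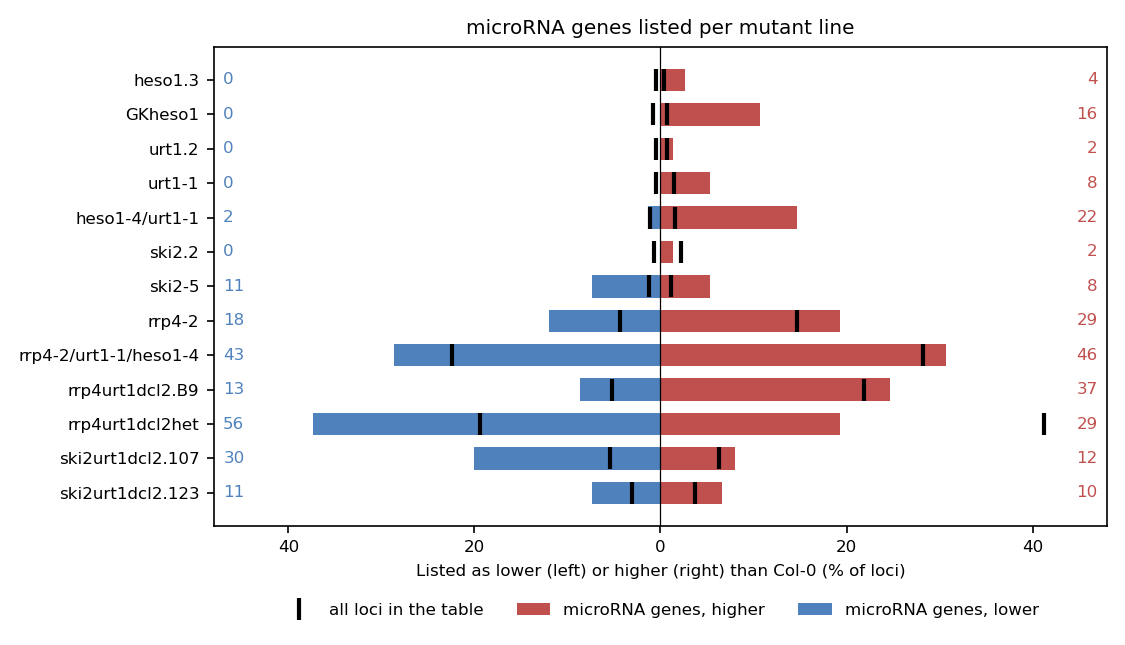
The bars show, for each mutant line, the percent of the 150 microRNA genes listed as higher (right, red) or lower (left, blue) than Col-0, the black ticks show the same for all 14888 loci, and the numbers at the edges count the genes. In GKheso1 and heso1-4/urt1-1 the red bars (10.7% and 14.7%) pass the ticks (0.658% and 1.59%), and in rrp4urt1dcl2het the red bar (19.3%) ends short of its tick (41.2%).

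The most abundant microRNA gene was among those that rose in lines named as heso1 mutants. MIR158a (AT3G10745, TAIR10.1 chromosome 3, 3366331 to 3366430), whose microRNA targets PPR genes, had a base mean of 110881 and a log2 fold change of 1.26 ± 0.21 (SE) in heso1-4/urt1-1 and 1.28 ± 0.21 in GKheso1 in the authors' deposited table. Its relative MIR158b, with a base mean of 1878, rose by 1.31 and 1.06 in the same lines in the authors' deposited table. Neither was listed in urt1-1, urt1.2 or heso1.3, where MIR158a would have needed a change of about 0.76, 0.78 and 0.80 to reach the last listed p.

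Genes of conserved families that regulate development rose in these lines as well. In heso1-4/urt1-1, 12 of the 30 table members of the families that target developmental transcription factors rose and 0 fell (median of the risers 1.13), and in GKheso1 7 rose and 0 fell (median 1.23). Genes that share a mature sequence were counted separately here. Such genes are MIR169d to MIR169g, MIR171b with MIR171c and MIR165a with MIR165b, so the risers are not independent. MIR171b and MIR171c, which target the GRAS genes of shoot meristems, were at 1.54 ± 0.19 and 1.58 ± 0.19 (SE) in heso1-4/urt1-1 and at 1.27 and 1.304 in GKheso1 in the authors' deposited table. MIR156h, of the family that holds back SPL genes and the adult phase, was at 1.80 ± 0.32 (SE) in heso1-4/urt1-1 and 1.36 ± 0.32 in GKheso1 in the authors' deposited table. MIR165a and MIR165b, against the HD-ZIP III leaf polarity genes, were both at 1.02 in heso1-4/urt1-1 in the authors' deposited table and were listed in no other line. The same holds for MIR164c, a regulator of NAC genes at organ boundaries, at 0.75 in the authors' deposited table.

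MIR169, the family against NF-YA transcription factors and known for nitrogen status, was listed in more of these lines than any other conserved family there. MIR169d was at 1.13 ± 0.19 (SE) in heso1-4/urt1-1, 0.89 in GKheso1, 0.92 in heso1.3 and 0.73 in urt1-1 in the authors' deposited table. MIR169f had 1.48, 1.23, 0.98 and 0.75 in those 4 lines in the authors' deposited table, and MIR169g 1.12, 0.88, 0.91 and 0.72. These genes encode the same mature microRNA, as does MIR169e, which was at 1.28 in heso1-4/urt1-1 and 1.22 in GKheso1 in the authors' deposited table. Reads of the mature microRNA cannot be assigned to 1 of the 4 genes, so they are not independent.

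Further microRNA genes, among them several that are not widely conserved, were listed in the same lines. MIR825 reached 1.38 ± 0.35 (SE) in heso1-4/urt1-1 and 2.35 ± 0.35 in GKheso1 in the authors' deposited table. MIR5012 was at 1.97 and 1.64, MIR775 at 1.19 and 1.24 and MIR773a, known for targeting the DNA methyltransferase gene MET2, at 0.92 and 0.94 in these lines in the authors' deposited table. MIR773a was also listed in heso1.3, at 0.75 in the authors' deposited table. MIR868 was listed in GKheso1 and not in heso1-4/urt1-1, at 1.68 ± 0.28 (SE) in the authors' deposited table, and MIR403, against the argonaute gene AGO2, was at 0.73 in GKheso1. MIR837 had the highest value of the double mutant, 2.58 ± 0.62 (SE), and of urt1-1, 2.48 ± 0.62, in the authors' deposited table, at a base mean of 10.3. Also higher in urt1-1 were MIR831 at 1.29 and MIR826b at 1.21, with a near-equal value for MIR826a, in the authors' deposited table, the last pair annotated on opposite strands of 1 locus. In urt1.2 MIR774a was at 3.29 ± 0.36 (SE) in the authors' deposited table and in no other line. The only falls among these 5 lines were MIR5027 at -3.43 ± 0.82 (SE) and MIR402 at -1.11 ± 0.28 in heso1-4/urt1-1 in the authors' deposited table; MIR402 is known for targeting a DNA glycosylase gene.

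**Figure D2:**
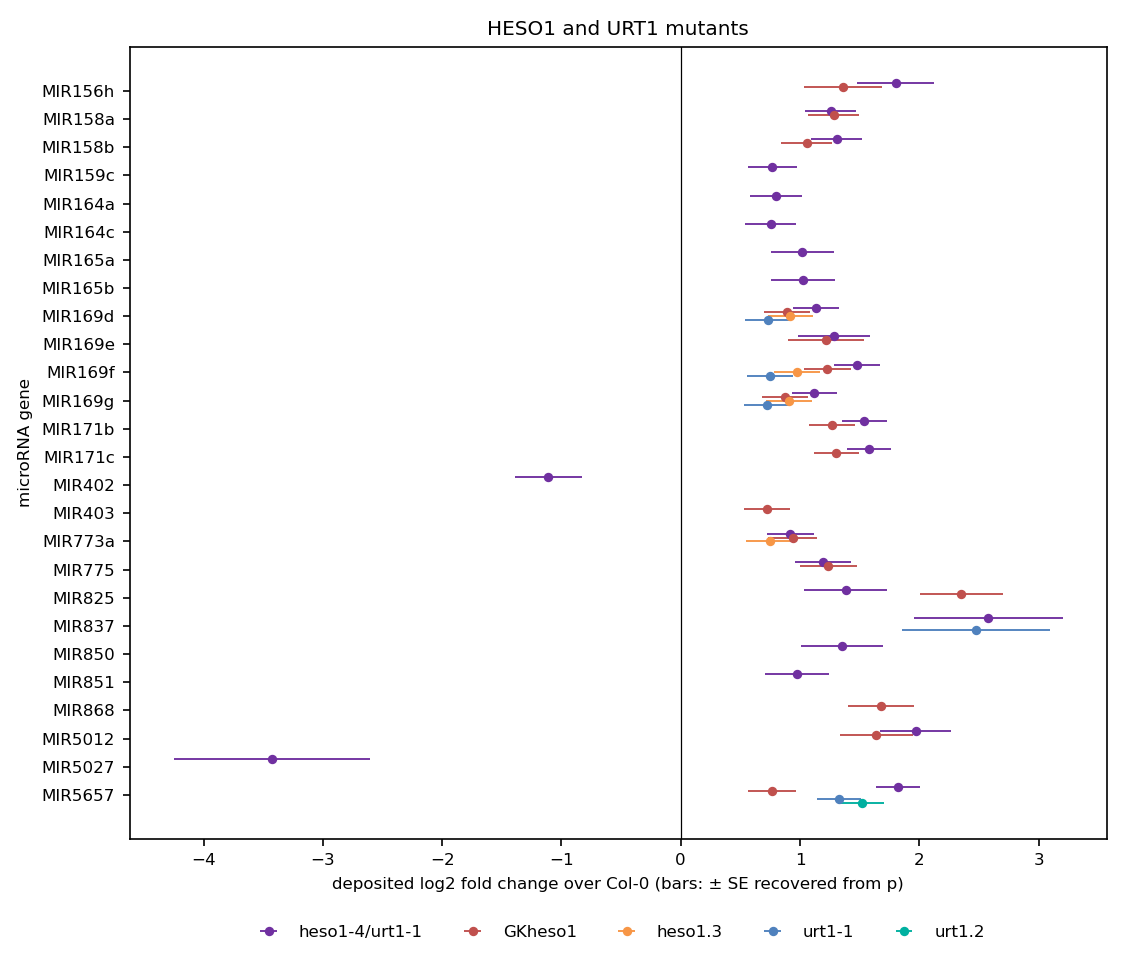
Points show the deposited log2 fold change over Col-0 (x axis) of each microRNA gene (y axis) listed in heso1-4/urt1-1 or GKheso1, coloured by line, with bars of 1 SE recovered from the p. All points but MIR402 and MIR5027, at -1.11 and -3.43 in heso1-4/urt1-1, lie right of 0, and MIR158a, the most abundant gene, lies at 1.26 and 1.28.

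Where a gene was listed in both lines, the double mutant was set against the single mutants by a two-sided z test, adjusted over all loci listed in both. Against urt1-1, 5 microRNA genes were listed in both and 0 differed (4 of 127 loci did over the table). With a correlation of 0.5 between lines 1 of the 5 differed, beside 14 of the 127 loci. It was MIR169f, with a difference of 0.73 ± 0.19 (SE; z test, adjusted p = 0.00263). Against GKheso1, 14 were listed in both and 1 differed, beside 6.61% of all loci. That gene was MIR5657, at 1.82 in heso1-4/urt1-1 against 0.77 in GKheso1, a difference of 1.06 ± 0.27 (SE; z test, adjusted p = 0.0017). For MIR825 the difference between heso1-4/urt1-1 and GKheso1 was -0.97 ± 0.49 (SE) and did not pass (z test, adjusted p = 0.458). A further 19 genes were listed in heso1-4/urt1-1 and not in urt1-1, and these are not shown to differ.

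The exosome mutant rrp4-2 had its highest microRNA values at MIR773b and MIR156i. MIR773b (AT1G06903, chromosome 1, 13050667 to 13050864) rose by 4.35 ± 0.30 (SE) in rrp4-2, a fold of 20.4, and was at 2.77 ± 0.31 in rrp4-2/urt1-1/heso1-4, 4.12 in rrp4urt1dcl2het and 4.34 in rrp4urt1dcl2.B9 in the authors' deposited table. It was listed in no line without an rrp4 mutation, where the change needed for listing was about 0.91 to 1.13. MIR156i (AT1G07867, chromosome 1, 19806917 to 19807113) was at 4.05 ± 0.51 (SE) in rrp4-2, 3.25 in rrp4-2/urt1-1/heso1-4, 4.35 in rrp4urt1dcl2het and 1.83 in rrp4urt1dcl2.B9 in the authors' deposited table, with a base mean of 20.7. Its hairpin lies within SPL4 on the other strand, as described with the overlapping genes. Next came MIR837 at 3.09, MIR5636 at 2.00 and MIR395d at 1.97 in rrp4-2 in the authors' deposited table.

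The MIR395 genes, which answer to sulfate supply and target ATP sulfurylases, rose as a family in rrp4-2. All 6 listed genes, MIR395a to MIR395f, were higher there, from 1.45 ± 0.36 (SE) for MIR395b to 1.97 ± 0.46 for MIR395d in the authors' deposited table. MIR395a, MIR395d and MIR395e, which encode the same sequence, were also higher in rrp4-2/urt1-1/heso1-4, at 1.13, 1.38 and 1.13 in the authors' deposited table. In ski2urt1dcl2.123 they were at 1.70, 2.00 and 1.70 in the authors' deposited table, and in ski2urt1dcl2.107 MIR395a and MIR395d were at 1.41 and 1.72. None of the 6 was listed in the rrp4 urt1 dcl2 lines. The phosphate-responsive MIR827, against the NLA gene, moved the other way in rrp4-2, at -1.26 ± 0.25 (SE) in the authors' deposited table.

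Of the 44 table members of conserved families, 8 rose and 10 fell in rrp4-2. Among the falls were abundant genes of the MIR156 and MIR162 families. MIR156a to MIR156f, with base means of 1613 to 2012, were lower by 0.77 to 0.82 in the authors' deposited table, each with an SE of about 0.18. MIR162a and MIR162b, which target DCL1, were at -0.63 and -0.65 in the authors' deposited table. The less abundant MIR172e, against AP2-like floral genes, was at -0.80. MIR158b, whose family was not counted among the conserved ones, was at -0.64 in rrp4-2 in the authors' deposited table. Among young families whose long hairpins are cut by DCL4, both listed members fell: MIR822 was at -1.06 ± 0.24 (SE) and MIR839 at -0.96 ± 0.19 in rrp4-2 in the authors' deposited table. They stood at -0.88 and -0.97 in rrp4-2/urt1-1/heso1-4 and at -1.18 and -1.22 in rrp4urt1dcl2het in the authors' deposited table. The lowest values in rrp4-2 were those of MIR4221 (-1.69), MIR5020b (-1.64), MIR8183 (-1.57), MIR856 (-1.46) and then MIR846 and MIR827 (both -1.26) in the authors' deposited table.

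Direction differed with level in several rrp4 lines. Of the 30 microRNA genes with a base mean of 1000 or more, 0 were higher and 9 lower in rrp4-2 (30.0%), beside 26.1% higher and 6.76% lower of the 932 loci at that level. In rrp4-2/urt1-1/heso1-4, 3 were higher and 11 lower, beside 17.4% and 24.2% of the loci at that level. In rrp4urt1dcl2.B9 the counts were 2 and 2 (33.4% and 6.01% of loci), and in rrp4urt1dcl2het 1 and 20 (44.5% and 23.4% of loci). The 9 lower in rrp4-2 were MIR158b, MIR162a, MIR162b and MIR156a to MIR156f. MIR156a to MIR156f share a mature sequence, as do MIR162a and MIR162b, so these genes are not independent. Genes that share a mature sequence were counted separately at every level. Of the 48 genes with a base mean under 50, 10 were higher and 2 lower in rrp4-2 (20.8% and 4.17%), near the 16.8% and 3.26% of the 5491 loci at that level. In rrp4urt1dcl2het these low genes split into 13 higher and 9 lower (27.1% and 18.8%, beside 36.7% and 16.6% of loci). Precision moved with level, since the median SE was 0.20 for genes of base mean 1000 or more and 0.43 for those under 50, so small changes of low genes could not be listed.

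**Figure D3:**
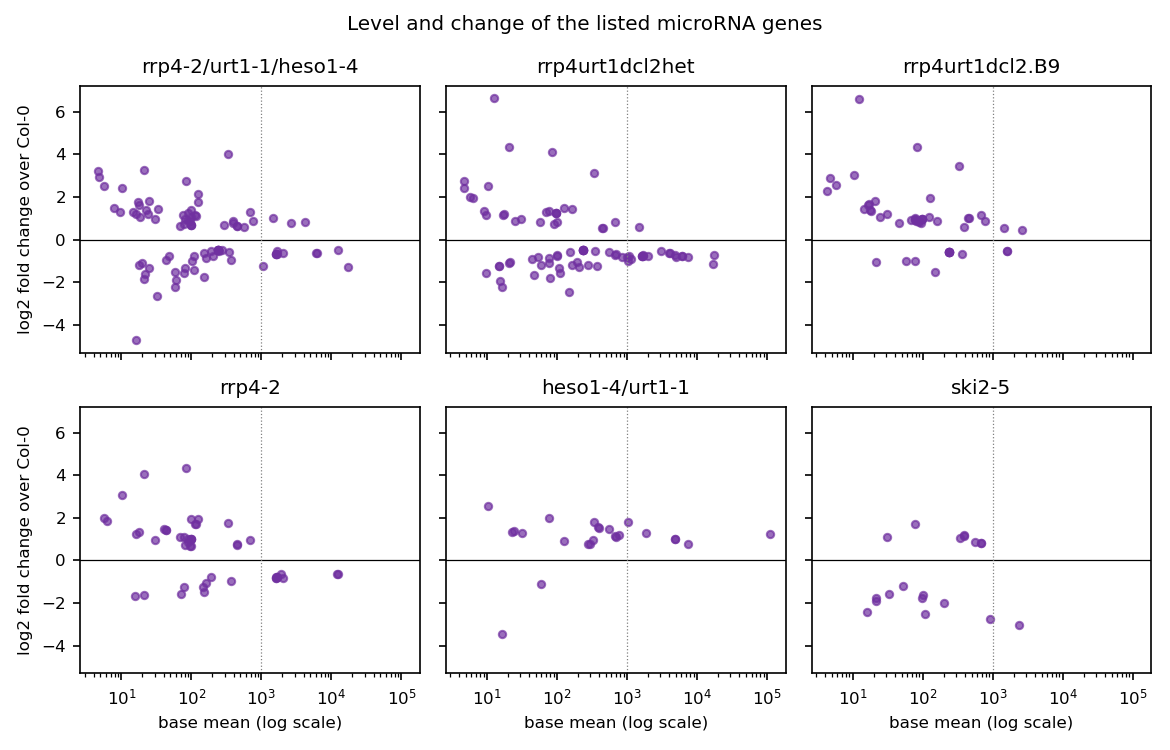
Each point is a listed microRNA gene, with its base mean on a log scale (x axis, normalised counts) and its deposited log2 fold change over Col-0 (y axis) in 6 lines; the dotted line marks a base mean of 1000. In rrp4-2 the 9 points right of the dotted line lie below 0, and in heso1-4/urt1-1 the 6 points there lie above 0.

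Adding urt1-1 and heso1-4 to rrp4-2 moved MIR5657 and MIR773b in opposite directions. Of 36 microRNA genes listed in both lines, these 2 differed, beside 18.9% of all loci. MIR5657 was at 4.04 in rrp4-2/urt1-1/heso1-4 against 1.75 in rrp4-2, a difference of 2.28 ± 0.25 (SE; z test, adjusted p = 1.19e-17). MIR773b was at 2.77 in rrp4-2/urt1-1/heso1-4 against 4.35 in rrp4-2, a difference of -1.58 ± 0.43 (z test, adjusted p = 0.00182).

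Adding rrp4-2 to heso1-4/urt1-1 turned or lowered several of the rises of the double mutant. Of 13 microRNA genes listed in both lines, 7 differed, beside 25.3% of all loci. MIR156h was at -1.24 in rrp4-2/urt1-1/heso1-4 against 1.80 in heso1-4/urt1-1, a difference of -3.04 ± 0.46 (SE; z test, adjusted p = 6.27e-10). MIR169f was at 0.60 against 1.48 (difference -0.87, z test, adjusted p = 0.00708), MIR171b at 0.80 against 1.54 (-0.74, adjusted p = 0.0269) and MIR171c at 0.88 against 1.58 (-0.70, adjusted p = 0.0356) in the same order of lines. The other 3 were higher in rrp4-2/urt1-1/heso1-4. MIR773a was at 2.14 there against 0.92 in heso1-4/urt1-1 (1.22 ± 0.27, z test, adjusted p = 6.34e-05), MIR5657 at 4.04 against 1.82 (2.22 ± 0.25, adjusted p = 6.94e-17) and MIR5027 at 1.22 against -3.43 (4.64 ± 0.92, adjusted p = 3.74e-06). MIR158a, the most abundant gene, was not listed in rrp4-2/urt1-1/heso1-4, where a change of about 0.57 would have reached the last listed p.

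Beyond these, the triple mutant rrp4-2/urt1-1/heso1-4 had its lowest values at MIR5018 (-4.73 ± 1.07, SE), MIR5016 (-2.63), MIR831 (-2.25), MIR4243 (-1.90) and MIR5020b (-1.86) in the authors' deposited table. Its highest, after MIR5657, were MIR156i (3.25), MIR5998a (3.22), MIR5998b (2.94) and MIR773b (2.77). MIR5998a and MIR5998b overlap on opposite strands and share a mature sequence, so they are not independent. Their base means were only 4.68 and 4.72, with a median SE over lines of 0.96 and 0.91. MIR163, which targets methyltransferase genes, was at 0.82 in this line in the authors' deposited table and in no other. MIR780, with a base mean of 17103, was at -1.26 ± 0.31 (SE) there and -1.13 in rrp4urt1dcl2het in the authors' deposited table. Of its 174 bases 170 lie in AT4G14810 on the opposite strand, which had a base mean of 14108. AT4G14810 was at -0.97 in rrp4-2/urt1-1/heso1-4 and -1.16 in rrp4urt1dcl2het in the authors' deposited table. Whether the same reads give both was not tested.

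In the lines named for rrp4, urt1 and dcl2, the highest microRNA value was that of MIR399f, which answers to phosphate and targets PHO2. MIR399f (AT2G34208, chromosome 2, 14444997 to 14445114) was at 6.59 ± 1.13 (SE) in rrp4urt1dcl2.B9 and 6.64 ± 1.13 in rrp4urt1dcl2het in the authors' deposited table, at a base mean of only 12.4. It was listed in no other line, and in rrp4-2 a change of about 3.35 would have been needed. In rrp4urt1dcl2.B9 MIR773b (4.34), MIR5657 (3.47), MIR837 (3.02) and MIR5998a (2.88) followed in the authors' deposited table, and the lowest were MIR856 (-1.51), MIR5020b (-1.04), MIR846 (-1.02), MIR831 (-1.01) and MIR839 (-0.69).

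The line rrp4urt1dcl2het had the most falls of any line, most of them small. Falls were not particular to it, since 43 genes were lower in rrp4-2/urt1-1/heso1-4. In ski2urt1dcl2.107 falls outnumbered rises as well, with 30 lower and 12 higher. The 56 lower genes of rrp4urt1dcl2het had a median of -0.79, beside a median of -0.84 for all lower loci of the line. Of these genes, 20 fell by 1 or more on the log2 scale. Of the 44 table members of conserved families 24 fell and 3 rose, and of the 30 against developmental transcription factors 20 fell and 2 rose. MIR167a and MIR167b, against auxin response factors, were both at -0.79, MIR168a, against AGO1, at -0.77, and MIR172a and MIR172b at -0.84 and -0.91 in the authors' deposited table. MIR159b and MIR159c, against GAMYB-like genes, were at -0.73 and -0.79, and MIR403 at -0.71 in the authors' deposited table. After MIR399f the highest values were MIR156i (4.35), MIR773b (4.12), MIR5657 (3.13) and MIR5998a (2.73) in the authors' deposited table. The lowest values were MIR856 (-2.44 ± 0.40, SE), MIR5018 (-2.25), MIR4221 (-1.92), MIR5017 (-1.81) and MIR870 (-1.67) in the authors' deposited table. Other normalisations could not be run, and whether the scaling of this line moves these genes together was not tested.

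Phasing triggers were listed in this line and hardly elsewhere. The table holds 3 of 8 annotated genes, and all 3 fell in rrp4urt1dcl2het, where 37.3% of the microRNA genes and 19.4% of all loci were lower. MIR173, which cuts TAS1 and TAS2 transcripts, was at -0.51 ± 0.16 (SE), MIR393b, against the auxin receptor genes, at -1.18 ± 0.23, and MIR472, against NB-LRR genes, at -0.59 ± 0.16 in the authors' deposited table. The only other entry was MIR393b in ski2urt1dcl2.107, at 0.92 ± 0.25 (SE) in the authors' deposited table. Of the 5 genes in the table whose microRNAs target the silencing genes DCL1, AGO1 or AGO2, 2 fell in rrp4-2, 1 in rrp4-2/urt1-1/heso1-4, 3 in rrp4urt1dcl2het and 3 in ski2urt1dcl2.107. MIR403 in GKheso1 was the 1 rise among them in any line.

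The exosome lines were compared with each other in the same way. The counts take the lines as uncorrelated except where a correlation is named. MIR5657 differed between rrp4urt1dcl2.B9 and rrp4-2 (3.47 against 1.75, 1 of 27 genes listed in both, beside 3.1% of all loci; z test, adjusted p = 3.16e-09). It also differed between rrp4urt1dcl2het and rrp4-2 (3.13 against 1.75, 1 of 32, beside 5.23%; z test, adjusted p = 3.34e-06). Against the triple mutant, rrp4urt1dcl2.B9 differed at 2 of 42 genes, beside 9.64% of all loci, and at 5 (13.6% of all loci) with a correlation of 0.5 between lines. MIR773b was at 4.34 against 2.77 (1.57 ± 0.43, SE; z test, adjusted p = 0.00372) and MIR773a at 1.05 against 2.14 (-1.08 ± 0.27, adjusted p = 0.00119). MIR773b was thus higher and MIR773a lower in rrp4urt1dcl2.B9 than in the triple mutant.

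Against the triple mutant, rrp4urt1dcl2het differed at 4 of 54 genes, beside 11.6% of all loci. With a correlation of 0.5 between lines 14 of the 54 differed, beside 25.6% of all loci. MIR773b was at 4.12 against 2.77 (1.35, z test, adjusted p = 0.0195), MIR5012 at -0.88 against 1.14 (-2.01, adjusted p = 0.000121), MIR169f at -0.60 against 0.60 (-1.20, adjusted p = 0.000282) and MIR5657 at 3.13 against 4.04 (-0.91, adjusted p = 0.00396). The rrp4urt1dcl2het and rrp4urt1dcl2.B9 lines differed at 1 of 36 genes, beside 6.54% of all loci (2 genes, beside 14.7%, with that correlation). It was MIR156i, at 4.35 against 1.83, a difference of 2.52 ± 0.74 (SE; z test, adjusted p = 0.0127).

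In ski2-5 the falls were led by the MIR845 genes, known in Arabidopsis for targeting retrotransposons in pollen. MIR845a (AT4G23387, chromosome 4, 12217406 to 12217568) was at -3.01 ± 0.28 (SE) in ski2-5, a fold of 0.124, -1.84 ± 0.31 in ski2urt1dcl2.107 and -1.01 ± 0.28 in ski2urt1dcl2.123 in the authors' deposited table. MIR845b (AT4G23375, chromosome 4, 12214069 to 12214167), which lies 3238 bases away, was at -2.75 ± 0.33 (SE), -2.08 and -1.21 in these lines in the authors' deposited table. Neither gene was listed in the other ski2 allele, ski2.2, where a change of about 0.94 for MIR845a and 1.09 for MIR845b would have reached the last listed p and where the table holds 77.2% of the ranks. Neither was listed in any line without a ski2 mutation. The fall was smaller in ski2urt1dcl2.123 than in ski2-5, by 2.00 ± 0.39 (SE) for MIR845a (z test, adjusted p = 8.41e-06) and 1.54 ± 0.46 for MIR845b (adjusted p = 0.0132), the 2 of 4 genes listed in both that differed, beside 6.72% of all loci. Between ski2urt1dcl2.107 and ski2-5, 0 of 9 genes differed, beside 5.26% of all loci. With a correlation of 0.5 between lines 4 of the 9 differed, beside 21.1% of all loci, MIR845a among them (a difference of 1.17 ± 0.30, SE; z test, adjusted p = 0.00126).

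Other falls in ski2-5 were MIR867 at -2.51 ± 0.35 (SE), MIR5018 at -2.40, MIR868 at -2.02, MIR5020b at -1.90, MIR778, known for phosphate status, at -1.78 and MIR859 at -1.75 in the authors' deposited table. The rises in ski2-5 were held by conserved families: of 44 table members 6 rose and 0 fell. MIR171c and MIR171b were at 1.197 and 1.15, MIR169a at 1.11 and MIR169f, MIR169d and MIR169g at 0.86, 0.81 and 0.81 in the authors' deposited table. MIR4240 was highest, at 1.72 ± 0.41 (SE), and MIR776 was at 1.07 in the authors' deposited table. MIR171c and MIR171b were also the 2 genes listed in ski2.2, at 0.79 and 0.73 in the authors' deposited table. The difference of ski2.2 minus ski2-5 was -0.41 ± 0.27 (SE) for each and did not pass (z test, adjusted p = 0.982 for both).

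In the ski2 urt1 dcl2 lines MIR5018 had the lowest value of all microRNA genes in both, -6.73 ± 1.49 (SE) in ski2urt1dcl2.107 and -4.99 ± 1.07 in ski2urt1dcl2.123 in the authors' deposited table, at a base mean of 16.2. Next lowest were MIR831 (-2.55), MIR778 (-2.09), MIR845b (-2.08) and MIR5020b (-1.96) in ski2urt1dcl2.107 and MIR2937 (-1.73), MIR5016 (-1.67), MIR870 (-1.29) and MIR4243 (-1.25) in ski2urt1dcl2.123 in the authors' deposited table. The highest values were MIR395d at 1.72, MIR5629 at 1.55 and MIR5657 at 1.47 in ski2urt1dcl2.107 and MIR837 at 2.25 and MIR395d at 2.00 in ski2urt1dcl2.123 in the authors' deposited table. MIR156h was at -1.29 and -1.09 and MIR824, against the floral and stomatal regulator AGL16, at 1.25 ± 0.22 (SE) and 0.95 ± 0.20 in ski2urt1dcl2.107 and ski2urt1dcl2.123 in the authors' deposited table. In ski2urt1dcl2.107, 13 of the 30 genes with a base mean of 1000 or more were lower and 1 higher, beside 11.8% and 14.4% of the 932 loci at that level. Among those lower were MIR162a at -0.80, MIR167b at -0.82 and MIR156a at -0.80 in the authors' deposited table. Genes that share a mature sequence were counted separately here too.

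**Figure D4:**
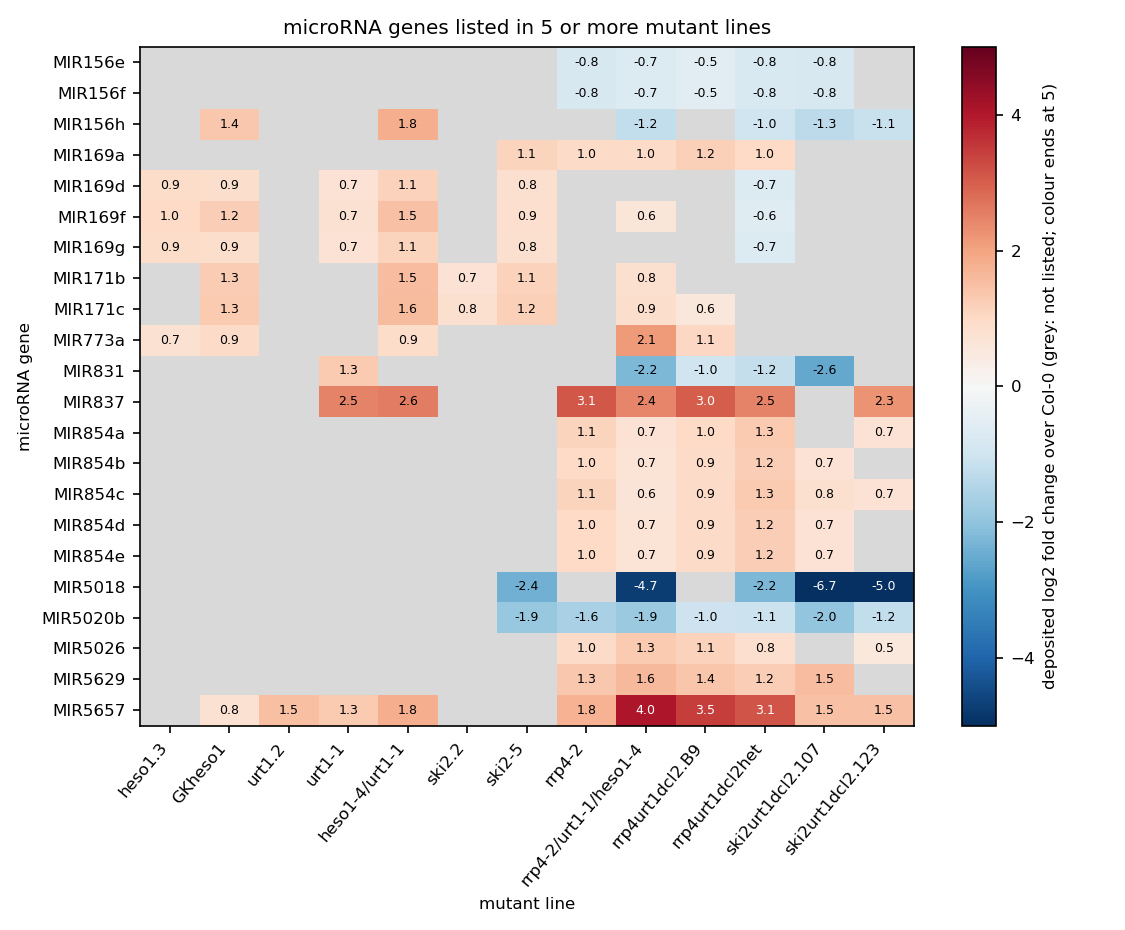
Each row is 1 of the 22 microRNA genes listed in 5 or more lines, each column a mutant line, and the colour and number give the deposited log2 fold change over Col-0 (grey cells were not listed). MIR156h and MIR169d change colour between the HESO1 lines on the left (1.36 and 0.89 in GKheso1) and rrp4urt1dcl2het (-0.999 and -0.70), and MIR5657 is red in 10 lines.

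MIR5657 was the 1 microRNA gene listed in 8 or more lines. It was at 0.77 ± 0.20 (SE) in GKheso1, 1.52 in urt1.2, 1.33 in urt1-1, 1.82 in heso1-4/urt1-1, 1.75 in rrp4-2 and 4.04 ± 0.18 in rrp4-2/urt1-1/heso1-4, according to the authors' deposited table. It was at 3.47 in rrp4urt1dcl2.B9, 3.13 in rrp4urt1dcl2het, 1.47 in ski2urt1dcl2.107 and 1.46 in ski2urt1dcl2.123 in the authors' deposited table, with no entry in heso1.3, ski2.2 or ski2-5. MIR5657 (AT5G04415, chromosome 5, 9789582 to 9789666, plus strand) lies wholly within an exon of the protease gene DEG14 (AT5G27660) on the opposite strand, outside its coding sequence. DEG14 itself was listed in 9 of these 10 lines, at 1.23 in urt1.2, 1.08 in urt1-1, 1.51 in heso1-4/urt1-1, 1.51 in rrp4-2, 3.71 in rrp4-2/urt1-1/heso1-4, 3.17 in rrp4urt1dcl2.B9, 2.85 in rrp4urt1dcl2het, 1.19 in ski2urt1dcl2.107 and 1.18 in ski2urt1dcl2.123 in the authors' deposited table. Gene and host thus had like values line by line, and whether the same reads give both was not tested.

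Overlap of this kind was common. Of the 150 microRNA genes 63 overlap another annotated gene, 44 of them 1 on the same strand and 27 an exon on the same strand. For 51 of these genes a partner that is no microRNA gene was listed in the same line at least once, which gave 137 cases. The values had the same direction in 133 cases and opposite directions in 4, and the median absolute difference was 0.21 on the log2 scale. These counts cover only lines where both were listed, and in 37 further cases the microRNA gene was listed in a line and its partner was not. MIR837, which lies outside the exons of the nitrate transporter gene NRT1.9 on the same strand, was at 3.09 in rrp4-2 beside 1.07 for that gene in the authors' deposited table, and NRT1.9 was not listed in urt1-1 or heso1-4/urt1-1. The sources used here do not give how reads in overlapping genes or on the 2 strands were counted, so such a microRNA gene and its partner cannot be told apart.

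The overlapping genes held most of the rises in the 4 lines with an rrp4 mutation. In rrp4-2, 20 of the 63 overlapping genes were higher, against 9 of the 87 that overlap none, and in rrp4urt1dcl2.B9 28 against 9. In rrp4-2/urt1-1/heso1-4 the counts were 29 and 17, and in rrp4urt1dcl2het 23 and 6. The falls in rrp4urt1dcl2het ran the other way, with 16 of the overlapping genes and 40 of the others. In ski2-5, by contrast, 1 overlapping gene and 7 of the others rose. In 2 lines named as heso1 mutants the rises lay mainly in genes that overlap none, with 5 of 63 overlapping genes against 17 of 87 others in heso1-4/urt1-1 and 2 against 14 in GKheso1. These splits carry no test.

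The partners of several named genes were listed as well. MIR156i is 197 bases long and lies within the exons of SPL4, most of it in coding sequence, on the opposite strand. SPL4 is a flowering regulator and is itself a target of miR156. SPL4 was at 3.07 in rrp4-2, 2.57 in rrp4-2/urt1-1/heso1-4, 3.39 in rrp4urt1dcl2het and 1.81 in rrp4urt1dcl2.B9 in the authors' deposited table, the same 4 lines as MIR156i. MIR5652 lies wholly in coding sequence of the PPR gene AT1G63130, one of the kind that makes phased siRNAs, on the opposite strand. It was at 0.87, 1.46, 1.18 and 1.12 in rrp4urt1dcl2.B9, rrp4urt1dcl2het, ski2urt1dcl2.107 and ski2urt1dcl2.123 in the authors' deposited table, beside 1.09, 1.78, 1.23 and 1.12 for the PPR gene. MIR5018 lies in the pseudogene AT1G65940, which was at -5.43 in rrp4-2/urt1-1/heso1-4 and -7.42 in ski2urt1dcl2.107 in the authors' deposited table. The 5 MIR854 genes, all higher in rrp4-2 at 0.99 to 1.12 in the authors' deposited table, lie in annotated pseudogenes on the same strand.

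MIR5636 was the case where gene and partner parted in several lines. It lies on the strand opposite to TAS1B, a source of trans-acting siRNAs that miR173 cuts. MIR5636 was at 2.00 ± 0.62 (SE) in rrp4-2, 2.52 in rrp4-2/urt1-1/heso1-4, 2.00 in rrp4urt1dcl2het and 2.56 in rrp4urt1dcl2.B9 in the authors' deposited table. TAS1B was at -0.55, -0.90 and -0.53 in rrp4-2, rrp4-2/urt1-1/heso1-4 and rrp4urt1dcl2het in the authors' deposited table, and rrp4urt1dcl2.B9 had no entry for it. The base mean of MIR5636 was 5.73 and that of TAS1B 2086. The fourth opposite case was MIR5642a in rrp4urt1dcl2.B9, at 0.46 in the authors' deposited table beside -0.44 for AT3G41762.

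**Figure D5:**
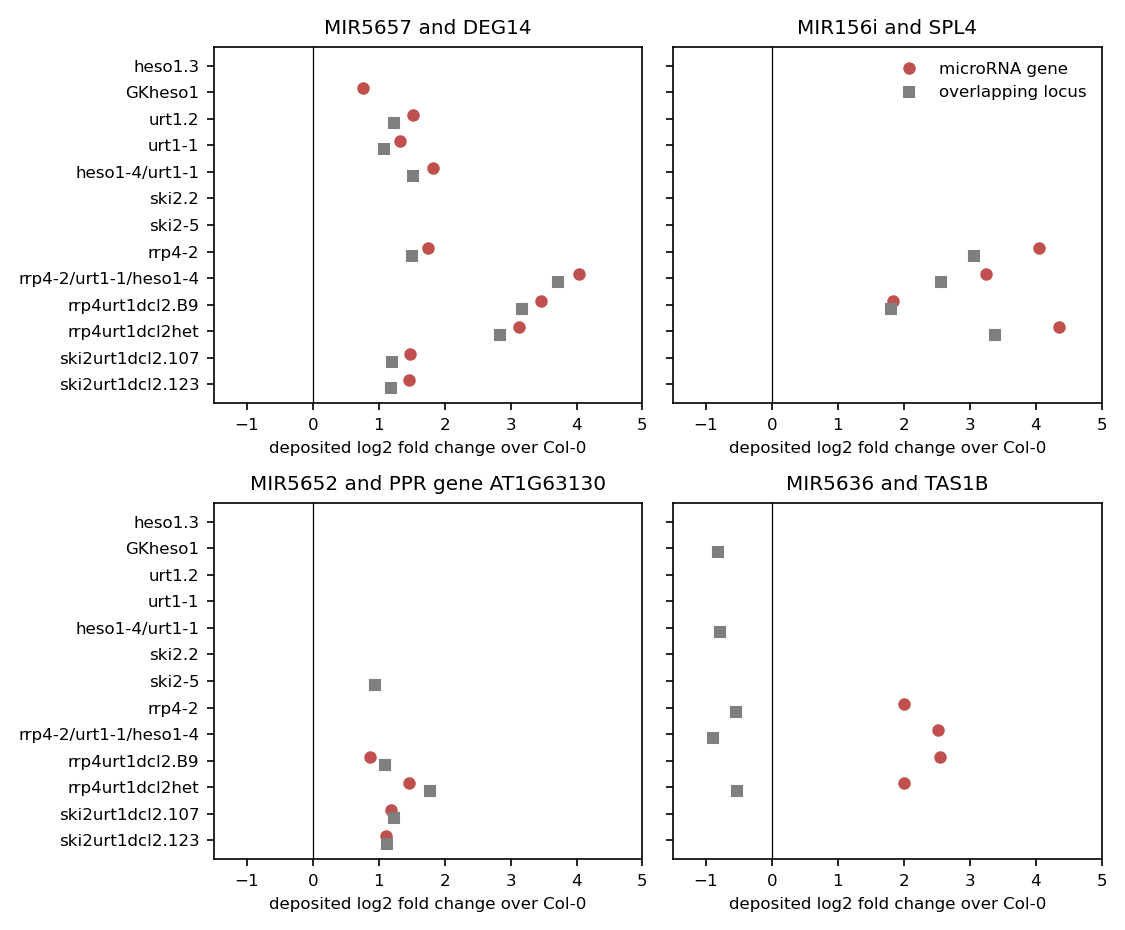
Red circles give the deposited log2 fold change over Col-0 (x axis) of a microRNA gene and grey squares that of the annotated gene it overlaps, by mutant line (y axis); lines without a mark were not listed. MIR5657 and DEG14 lie close together in every line that lists both, whereas MIR5636 (2.00 to 2.56) and TAS1B (-0.53 to -0.90) lie on opposite sides of 0 in the rrp4 lines.

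Genes with the same mature sequence had nearly the same values in lines that list the whole group. There were 19 groups of genes that share a mature sequence, with 50 of the 150 genes. MIR8167a to MIR8167f were listed with identical values in 3 lines, at -0.49 in rrp4-2/urt1-1/heso1-4, -0.47 in rrp4urt1dcl2het and -0.57 in rrp4urt1dcl2.B9 in the authors' deposited table. Ranges were taken only in lines that list every gene of a group. The widest range of log2 fold changes within such a line was 0.15 among MIR156a to MIR156f, 0.13 among the MIR854 genes, 0.08 between MIR171b and MIR171c and 0.35 among MIR169d to MIR169g. Of the lines with any entry of the group, these were 4 of 5 for MIR156a to MIR156f and 4 of 6 for the MIR854 genes. They were 5 of 6 for MIR171b and MIR171c and 2 of 7 for MIR169d to MIR169g. MIR156h and MIR156i share the miR156 seed but not its full sequence. MIR156i rose in rrp4-2, where MIR156a to MIR156f fell, and MIR156h was not listed there, where it would have needed a change of about 0.96. In other lines MIR156h fell with them, at -1.24 beside -0.69 for MIR156a in rrp4-2/urt1-1/heso1-4 and -1.29 beside -0.80 in ski2urt1dcl2.107 in the authors' deposited table. Counted by family, the rises in heso1-4/urt1-1 came from 15 families, those in GKheso1 from 11, those in rrp4-2 from 18 and the falls in rrp4urt1dcl2het from 34.

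The listed genes resembled annotated microRNAs at large in length and first base. Of their 201 mature sequences 69.2% are 21 nt and 15.4% are 22 nt long, beside 75.9% and 11.2% of all 428 annotated mature sequences, and 60.2% begin with U, beside 56.3%. Of the 29 genes with an annotated 22-nt mature sequence, 19 were lower and 1 higher in rrp4urt1dcl2het, against 37 lower and 28 higher of the 121 others. In rrp4-2/urt1-1/heso1-4, 13 of the 29 were lower and 6 higher, against 30 and 40 of the 121. The 29 include MIR8167a to MIR8167f, whose values cannot be told apart. In heso1-4/urt1-1, 1 of the 29 was higher against 21 of the 121, and in GKheso1 1 against 15. These splits carry no test either.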

How the data were processed

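Small RNA libraries of inflorescences were sequenced by the authors and, per the submitters' processing notes, processed on TAIR10 with the tools DESeq2, Subread 1.6.3 with its featureCounts, STAR 2.6.0a and cutadapt 2.4, named in no order; parameters, strand setting and the treatment of reads that match several genes are not given in the sources used here. The authors' deposited table gives per locus and line a base mean, which is a signal of mean normalised counts, a log2 fold change, a p-value and an adjusted p-value, all made by the authors with DESeq2. It lists adjusted p up to 0.05 only, and its depth per library is unknown.

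Members were the loci of type microRNA outside the copper set; members and family lists were chosen with earlier results of these data known. A gene was called higher or lower by the authors' adjusted p, and counts were set beside the share of all 14888 listed loci called in the same line and direction. Standard errors were recovered by dividing the size of each log2 fold change by the z value of its deposited p-value. For a gene not listed in a line, the change needed was its median standard error times the normal quantile of the line's largest listed p. The 15 pairs of lines were compared by a two-sided z test on differences of log2 fold changes, adjusted by Benjamini-Hochberg over all loci listed in both lines; if lines share Col-0 libraries, it is cautious. The labelled groups have 3 libraries each. Whether the authors' p-values rest on the spread within those groups or on one pooled over more libraries is not given in the sources used here. For lines that match no labelled group the number of libraries is not known here.

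Named genes were the 5 highest and 5 lowest called per line, those called in 8 or more lines, the 10 of highest base mean, called members of the family lists, and those past adjusted p 0.05 between lines; MIR5657's and other partners, and a few further genes of the same families, were named after their values were seen. Alternatives were a stricter p, a minimum change, a base mean minimum, families counted once, copper genes added, a correlation of 0.5 between lines and, chosen after seeing the data, leaving out genes that overlap another. Positions and sequences are from RefSeq TAIR10.1. Python 3.11.15, pandas 2.3.3, NumPy 2.4.6, SciPy 1.17.1 and matplotlib 3.10.9 were used.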

Additional observations from a re-analysis of the deposited data

Results flagged for a closer look

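MIR156i was the microRNA gene whose change differed between the 2 lines named for rrp4, urt1 and dcl2. Its log2 fold change in the authors' deposited table was 4.35 in rrp4urt1dcl2het and 1.83 in rrp4urt1dcl2.B9, and the difference was 2.52 (two-sided z test, adjusted p = 0.0127). Its base mean was 20.7, and SPL4 on the opposite strand was at 3.39 in rrp4urt1dcl2het and 1.81 in rrp4urt1dcl2.B9 in the authors' deposited table. The part of SPL4 reads in this difference was not tested.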

How the results depend on the processing

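Counts of called genes are given here as higher and lower together. With an adjusted p under 0.01 they were 2 in urt1-1 (8 at 0.05), 15 in heso1-4/urt1-1 (24), 1 in ski2.2 (2), 53 in rrp4-2/urt1-1/heso1-4 (89), 30 in rrp4urt1dcl2.B9 (50), 53 in rrp4urt1dcl2het (85), 25 in ski2urt1dcl2.107 (42) and 11 in ski2urt1dcl2.123 (21), and 259 of 409 entries passed. With a change of at least 1 they were 0 in heso1.3 (4), 5 in urt1-1, 0 in ski2.2, 25 in rrp4-2 (47), 45 in rrp4-2/urt1-1/heso1-4, 24 in rrp4urt1dcl2.B9, 40 in rrp4urt1dcl2het and 22 in ski2urt1dcl2.107. With a base mean of at least 50 they were 1 in urt1.2 (2) and 5 in urt1-1. With families counted once they were 2 in heso1.3, 5 in urt1-1, 1 in ski2.2, 29 in rrp4-2 and 55 in rrp4urt1dcl2het. With the copper genes added they were 7 in heso1.3, 15 in urt1-1 and 9 in ski2.2. Without the genes that overlap another, chosen after seeing the data, they were 1 in urt1.2, 4 in urt1-1, 20 in rrp4-2, 45 in rrp4-2/urt1-1/heso1-4, 20 in rrp4urt1dcl2.B9, 46 in rrp4urt1dcl2het, 26 in ski2urt1dcl2.107 and 11 in ski2urt1dcl2.123. Other causes of these moves were not tested. With a correlation of 0.5 between lines, genes that differ numbered 1 between heso1-4/urt1-1 and urt1-1 (0), 2 between rrp4urt1dcl2.B9 and rrp4-2 (1), 5 between rrp4urt1dcl2.B9 and the triple mutant (2), 14 between rrp4urt1dcl2het and the triple mutant (4), 2 between rrp4urt1dcl2het and rrp4urt1dcl2.B9 (1) and 4 between ski2urt1dcl2.107 and ski2-5 (0). With a difference of at least 1, 4 remained between the triple mutant and heso1-4/urt1-1 (7). The GKheso1 and ski2-5 counts stayed within 1.5 times under each of these settings. No paired analysis was possible because the table holds no values of single libraries, and for the same reason no library could be left out and no other normalisation run.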
